A study of Schizosaccharomyces pombe with 5 samples.

Results

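The peaks over 3 loci of phosphate metabolism in fission yeast, nc-tgp1, pho841 and vtc4, were described in CLIP-Seq data (UV crosslinking, immunoprecipitation and sequencing of the bound RNA) for the RNA-binding proteins Mei2 and Msa1. The loci were chosen by their presence in 2 lists of peaks, so that the tags, ratio and width of each peak are a description with no test. Of 268 peaks in all, 5 lay at these loci, of which 1 was among the 128 Mei2-TAP peaks and 4 were among the 140 Msa1-TAP peaks. The peaks were found as those that overlapped chromosome II 352603 to 353781, chromosome II 135907 to 136107, or the annotated vtc4 gene. Mei2 is the master regulator of entry into meiosis, and Msa1 is an RNA-binding protein that acts against sexual differentiation and that the study used as a control for RNAs that stick to many such proteins.

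All cells were homothallic (h90) and had been moved from rich medium to nitrogen-poor ME medium, so that they entered meiosis, and per the strain list of the study all carried ura4-D18 and leu1-32. They carried a TAP tag on Mei2 (2 libraries), a TAP tag on Msa1 (2 libraries) or no tag (1 library). The labels give 4 h of starvation for each library, whereas their protocol text lists pellets taken after 4, 5 and 6 h and the study describes a pool of harvests, so that the harvest each library holds is not settled. Each list came from 1 tagged library set against the 1 untagged library, the second libraries were not analysed here, and no value has a replicate check. The library totals recovered from the lists were 194019 tags (Mei2-TAP), 359942 tags (Msa1-TAP) and 252516 tags (untagged cells), where a tag is a read pair and each read of it counts as 0.5. Both lists were made against the same untagged library, so that a low untagged value at a locus raises both ratios.

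When phosphate is plentiful, fission yeast keeps its phosphate genes silent by transcribing long non-coding RNAs (lncRNAs) across their promoters. nc-tgp1 is such an RNA: it is made upstream of tgp1, which encodes a glycerophosphodiester transporter, and its transcription into the tgp1 promoter keeps the activator Pho7 away. The lncRNA prt does the same for pho1, the secreted acid phosphatase, and prt2 for pho84, a phosphate transporter. These RNAs are unstable, and the YTH-domain protein Mmi1, which also removes meiotic transcripts from vegetative cells and is held back by Mei2 in meiosis, recognises UNAAAC hexamers in them. pho841 encodes a transporter related to Pho84, and vtc4 encodes the catalytic subunit of the VTC complex, which makes polyphosphate at the vacuole.

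The stretches of nc-tgp1 that hold Mmi1 hexamers are shown because all of them lay under the Mei2-TAP peak, which covered 62.1% of the transcript. Mmi1 was not precipitated in these libraries, and whether the hexamers bear on the peaks was not tested. The stretches are given below from the ASM294v3 genome on the strand of nc-tgp1, 5′ to 3′, with the hexamers TNAAAC in capitals. The first window is chrII:353375-353424, the second chrII:353188-353231 and the third chrII:352836-352861, all on the minus strand.
nc-tgp1 window 1: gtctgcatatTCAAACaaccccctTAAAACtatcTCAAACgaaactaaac
nc-tgp1 window 2: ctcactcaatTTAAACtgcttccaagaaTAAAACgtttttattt
nc-tgp1 window 3: attccttgggTTAAACggcatgtggt

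nc-tgp1 was the only member locus with peaks in both lists. It carried 1 Mei2-TAP peak and 2 Msa1-TAP peaks, whereas pho841 and vtc4 each carried 1 Msa1-TAP peak and no Mei2-TAP peak. Of the 12606 annotated nuclear genes, 1.56% lay under a Mei2-TAP peak, 1.73% under an Msa1-TAP peak and 0.262% under peaks of both lists. The member loci were picked for lying under a peak, so that nothing can be read from their count beside these shares.

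The Mei2-TAP peak over nc-tgp1 (SPNCRNA.1698, chromosome II 352335 to 354234, minus strand) held 147 tags in the Mei2-TAP library and 10 tags in the untagged library. Per library total, this is 0.0758% of the Mei2-TAP tags (exact Clopper-Pearson 95% interval 0.0640 to 0.0890%) against 0.00396% of the untagged tags (0.00190 to 0.00728%). The ratio was 19.1 (95% interval 10.1 to 40.7), and the signal scaled by the authors was 7576.6 tags per 10000000. Intervals here and below cover counting error only. The list holds only peaks at least 4-fold over this untagged library, so that the excess was fixed by the choice of the peak. Among the 128 Mei2-TAP peaks it ranked 7 by tags, 15 by ratio and 3 by width, and its untagged tags ranked 18. The medians of the whole list were 13.25 tags, a ratio of 5.86 and a width of 200 nt, which is also the shortest width that the caller gave and that of 59.4% of the peaks.

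At 1178 nt the Mei2-TAP peak was 1 of 4 in that list with a width of 1000 nt or more. It held 125 tags per kb, at rank 17, against a list median of 57.5 tags per kb, so that it was also denser in tags than most peaks of the list. The peak spanned bases 454 to 1632 of the 1900 nt transcript, or 62.1% of it, and left free its start and its end. Its near edge lay 192 nt upstream of the annotated start of tgp1 and its far edge 1370 nt upstream. The annotated tgp1 and nc-tgp1 transcripts share 77 bases, and none of these lay under the peak. A further lncRNA on the plus strand, SPNCRNA.4681 (chromosome II 351057 to 353980), covered the same bases, and the lists carry no strand, so that the RNAs cannot be told apart from the peak.

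The Msa1-TAP peaks lay inside the Mei2-TAP peak, near its ends. The longer one, nearer the start of nc-tgp1 (chromosome II 353450 to 353771, bases 464 to 785 of the transcript), held 29.5 tags in the Msa1-TAP library and 3 in the untagged library, a ratio of 6.90 (95% interval 2.14 to 35.4). The shorter one, nearer tgp1 (chromosome II 352663 to 352863, bases 1372 to 1572), held 14 tags against 1, a ratio of 9.82 (1.49 to 415). Both ratios were above the Msa1-TAP list median of 5.37, but each interval contained that median, so that neither peak stood apart from its list at this depth. In tags they ranked 45 and 123 of 140, and the list median was 23.50. The ends of the Mei2-TAP and Msa1-TAP peaks nearly met, with 60 nt between the edges on the tgp1 side and 10 nt on the other.

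**Figure D1:**
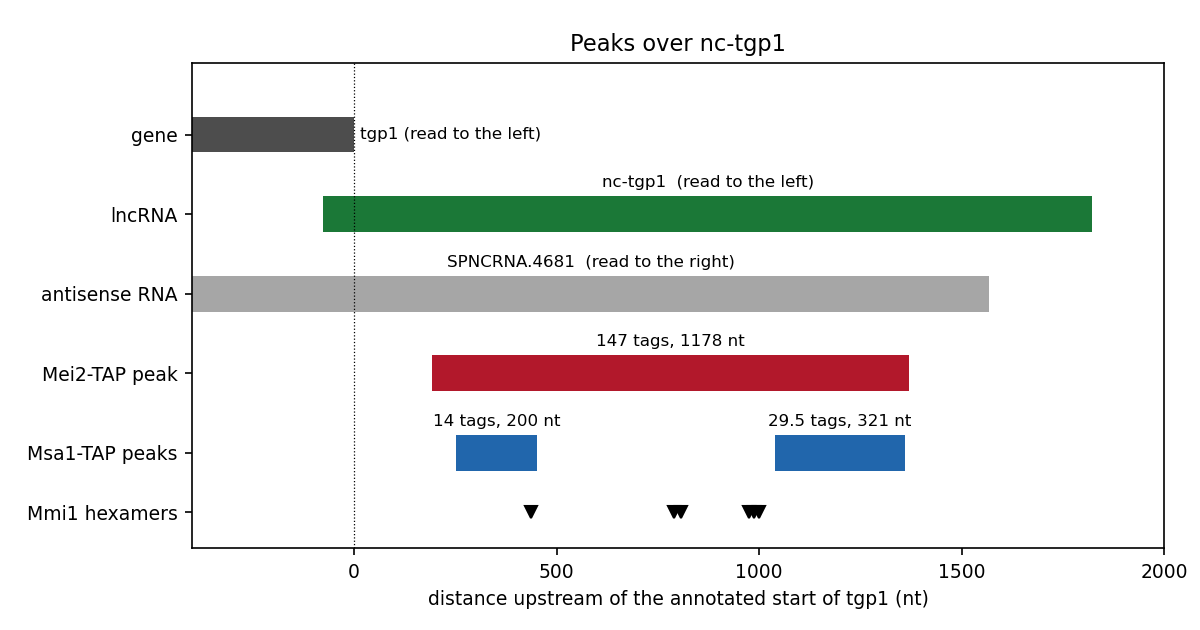
The map gives, by distance upstream of the annotated tgp1 start in nt, the tgp1 gene, nc-tgp1, the antisense SPNCRNA.4681, the Mei2-TAP peak (red), the Msa1-TAP peaks (blue) and the Mmi1 hexamers on the nc-tgp1 strand (triangles). The Mei2-TAP peak runs from 192 to 1370 nt, the Msa1-TAP peaks lie within it, and 5 of 6 hexamers fall between the Msa1-TAP peaks.

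Together the Msa1-TAP peaks covered 44.4% of the bases of the Mei2-TAP peak and were 586 nt apart. Of the 10 untagged tags under the Mei2-TAP peak, 4 lay under the Msa1-TAP peaks and 6 in the rest of it, or 7.65 and 9.15 untagged tags per kb. These counts are too low to show how the background was spread. The summed Msa1-TAP tags were 43.5, a ratio of 7.63 (2.78 to 29.3), and the summed signal was 1208.6 tags per 10000000. This sum is over separately called peaks that cover less of the locus than the Mei2-TAP peak, so that it is not set against the Mei2-TAP ratio. A single Msa1-TAP peak over the whole Mei2-TAP region would have needed 57.0 tags to reach the lowest fold of 4 that the lists hold.

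In all, 18 of the 128 Mei2-TAP peaks overlapped an Msa1-TAP peak by 1 nt or more, and nc-tgp1 was the only one of the 18 with 2 Msa1-TAP peaks beneath it. Among these 18 it ranked 2 by Mei2-TAP ratio, 4 by Msa1-TAP ratio, and 3 by Mei2-TAP tags and width. The shared peaks with the most similar pair of ratios lay over aim29 (9.37 with Mei2-TAP and 7.72 with Msa1-TAP), pst3 (8.03 and 5.73), which encodes a subunit of a Clr6 histone deacetylase complex, and sqt1 (7.38 and 7.48), a gene of ribosome assembly. Their Mei2-TAP peaks held 18, 18.5 and 8.5 tags, far fewer than the 147 at nc-tgp1. Likeness was measured as the distance over the log2 ratios and was 1.03, 1.32 and 1.38, so that none of them came close.

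Within the Mei2-TAP list, the peaks most like that of nc-tgp1 in tags, untagged tags and width were those over mmi1, the gene of the YTH protein itself, leu2, a gene of leucine synthesis, and rep2, a subunit of the transcription factor MBF. They held 66, 72 and 74.5 tags against 15, 14.5 and 16.5 untagged tags, with ratios of 5.73, 6.46 and 5.88. A second Mei2-TAP peak over mmi1 (chromosome III 339718 to 340160, 442 nt), less alike in these measures, held 80 tags against 6.5, a ratio of 16.0. The distances of the 3 nearest peaks were 1.30, 1.43 and 1.48 on the log2 scale over the 3 measures. Each of these 3 peaks held fewer tags and more untagged tags than that of nc-tgp1. The Msa1-TAP peaks of nc-tgp1, by contrast, had near copies in their list. The shorter one was like the peaks over rpe1, dsk2 and SPNCRNA.626, with 14.5, 15 and 12.5 tags against 1 untagged tag each and distances up to 0.163. The longer one was like those over gms2, SPNCRNA.7236 and pst3, with 26.5, 30 and 24.5 tags and distances up to 0.294.

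**Figure D2:**
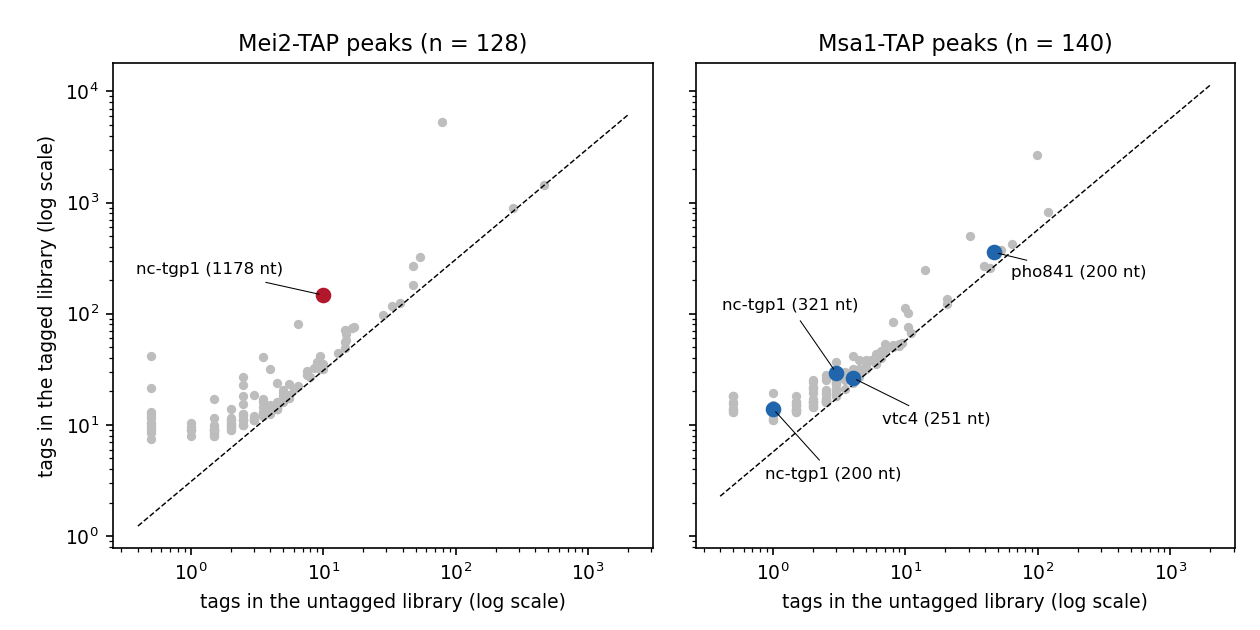
Each point is a peak, with its tags in the untagged library on the x axis and in the tagged library on the y axis, both on log scales, for the Mei2-TAP list on the left and the Msa1-TAP list on the right; coloured points are the named loci and the dashed line marks a fold of 4. The nc-tgp1 point of the Mei2-TAP list (147 against 10 tags) stands well above the line, whereas the pho841 point of the Msa1-TAP list (356 against 47) lies closer to it.

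Other Mei2-TAP peaks lay near nc-tgp1. The peak that reaches meiRNA (sme2), with the most tags in the Mei2-TAP list, ended 12604 nt from the nc-tgp1 peak, and a further Mei2-TAP peak over SPBC1271.10c (chromosome II 349375 to 349627, 13 tags against 0.5) lay 2975 nt from it. These 3 of the 48 Mei2-TAP peaks of chromosome II fell within 17553 nt. The median distance from a Mei2-TAP peak to the next one was 28534 nt, and 26 peaks of the list, nc-tgp1 included, had a neighbour at most as far away as that of nc-tgp1. Many of these neighbours were further peaks of the same gene, as at mmi1, leu2 and nmd5. The count thus does not show how often peaks of different genes lay so close, or how often 3 peaks did.

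The hexamers lay unevenly along nc-tgp1. On its own strand the transcript held 6 matches to TNAAAC (4 to the forms TTAAAC or TCAAAC or the form TGAAAC, and 2 to the form TAAAAC). All 6 lay under the Mei2-TAP peak, which covered 62.1% of the transcript. The first 3 began at transcript bases 821, 835 and 845 and thus fit in 30 nt, as window 1 shows. The next began at 1014 and 1032, in window 2, and the last at 1384, in window 3. Of the 6, 5 lay in the stretch between the Msa1-TAP peaks, 1 lay under the shorter Msa1-TAP peak and 0 under the longer one. Of the 7133 annotated lncRNAs, 0.294% held 3 hexamers on their own strand within 30 nt, whereas 24.1% had as many hexamers per kb as nc-tgp1 (3.16 per kb, against a median of 1.74 per kb). The span of 30 nt was set by nc-tgp1 itself. The share of 0.294% therefore describes a limit fitted to nc-tgp1, and how rare close spacing is cannot be read from it. The number of hexamers per kb was not rare among lncRNAs. On the other strand, the Mei2-TAP peak held 4 matches to TNAAAC.

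Of all stretches of 1179 nt tiled along either strand of the nuclear genome, 8.42% held 4 or more of the 3 forms and 3.94% held 6 or more TNAAAC. At least 1 of the 3 forms was found in 79.6% of such stretches, because they are long. Over the lists, 35.2% of the Mei2-TAP peaks and 22.1% of the Msa1-TAP peaks held at least 1 of the 3 forms on the strand of the gene they were assigned to. The lists differed in width, with 59.4% of the Mei2-TAP and 67.1% of the Msa1-TAP peaks at 200 nt, so that these shares cannot be compared directly. Stretches of 201 nt held at least 1 of the 3 forms in 23.6% of cases. The peaks of pho841 and vtc4 held 0 matches to TNAAAC on the strand of the gene. Stretches of 201 nt and 252 nt, the lengths of these peaks, hold at least 1 match to TNAAAC in 32.1% and 38.4% of cases. A match to so short a motif is common, and its absence is common too.

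The near edge of the Mei2-TAP peak fell on the motif that Pho7 recognises upstream of tgp1. The motif lay at chromosome II 352592 to 352603 and shared 1 base with the peak. It is shown in capitals within chrII:352572-352623 of the same build, minus strand, because it marks where the peak ended relative to the promoter.
tgp1 upstream: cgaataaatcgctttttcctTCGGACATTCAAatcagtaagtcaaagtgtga

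The Pho7 motif began 192 nt before the annotated tgp1 start. Within 300 nt upstream of the annotated start, 2.15% of the 5113 protein-coding genes held the motif on either strand. pho1 held 2 matches, and pho84, pho841 and vtc4 held 0 in this window. Such a match is a description of the sequence, and no binding was measured here.

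pho841 was the locus with the most tags. Its Msa1-TAP peak (chromosome II 135907 to 136107, 200 nt) held 356 tags in the Msa1-TAP library and 47 in the untagged library, or 0.0989% (95% interval 0.0889 to 0.110%) and 0.0186% (0.0137 to 0.0248%) of the libraries. The ratio was 5.31 (3.91 to 7.37), and the scaled signal was 9890.5 tags per 10000000. By tags it ranked 6 of 140 in the list and 2 of the 111 peaks assigned to a coding gene, and it held 3.70% of all tags in Msa1-TAP peaks. Its untagged tags ranked 5, and its ratio ranked 72, next to the list median of 5.37. The pho841 peak thus stood out by abundance in both libraries and not by enrichment. It lay in 200 nt, so that it held 1780 tags per kb, against a list median of 96.0.

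The pho841 peak sat over the stop codon. The gene (SPBC1683.01, plus strand) is annotated at chromosome II 134002 to 136275 and its coding sequence ends at 136024. The peak covered the last 118 coding bases and the first 83 bases of the 3′ UTR, at transcript bases 1906 to 2106 of 2274, and ended 168 nt before the annotated end. A long terminal repeat of a retrotransposon lay 277 nt beyond it. Of the 111 coding peaks in each list, the last coding base lay under 10.8% with Msa1-TAP and 15.3% with Mei2-TAP, so that a peak over the stop codon was uncommon in either list. The vtc4 peak, described below, was another of this kind, so that this position was not particular to pho841.

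pho841 belongs to a family of transporter genes of similar sequence, and the last 90 coding bases are given for it and for pho84, with the stop codon in capitals, to show how far reads could be told apart under the peak. The stretches are chrII:135935-136024 and chrII:4445881-4445970, both on the plus strand of ASM294v3.
pho841 coding end: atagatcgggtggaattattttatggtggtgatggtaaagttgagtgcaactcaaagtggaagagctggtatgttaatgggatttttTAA
pho84 coding end: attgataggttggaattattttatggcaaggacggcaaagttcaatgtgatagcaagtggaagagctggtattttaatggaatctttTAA

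Of these 90 aligned bases, 70 were identical (77.8%), against 81.7% over the whole coding sequences. The peak had 1 further match in the genome with an expectation value up to 1e-3, to pho84 (79.1% identity over 115 nt). The other 4 peaks had 0 such matches. The deposited lists do not say how reads that match in several places were treated. No peak of either list lay on pho84, and the nearest Msa1-TAP peak was 92036 nt away.

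The peaks of the Msa1-TAP list nearest to that of pho841 in tags, untagged tags and width were on the mitochondrial genome (371 tags against 52.5, and 267.5 against 39.5) and over sum3, which encodes a DEAD-box helicase of translation (426 against 64). Their ratios were 4.96, 4.75 and 4.67. All 3 were, like pho841, narrow peaks of 200 nt over RNAs with high background. With 47 untagged tags at pho841, a Mei2-TAP peak at the lowest fold of 4 would have needed 144 tags, about as many as at nc-tgp1. Tags of the Mei2-TAP library at pho841 outside called peaks were not analysed here, so that the lack of a peak does not show that no RNA was recovered.

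vtc4 had the lowest ratio of the 5 peaks, though not the fewest tags. The Msa1-TAP peak (chromosome III 1318177 to 1318428, 251 nt) held 26.5 tags in the Msa1-TAP library and 4 in the untagged library, a ratio of 4.65 (95% interval 1.62 to 18.3) with a signal of 736.2 tags per 10000000. It ranked 54 of 140 by tags, 103 by ratio and 36 by width. The lists hold folds from 4.01 upwards, so that this peak stood near the lower limit, and the interval reached below 2. A Mei2-TAP peak there would have needed 12.3 tags, and the smallest Mei2-TAP peak held 7.5. The nearest Mei2-TAP peak was 15961 nt from the gene, over srk1.

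Only the end of vtc4 lay under its peak. The gene (SPCC1322.14c, minus strand) is annotated at chromosome III 1318375 to 1321030, and 54 bases of it were covered, of which 4 were coding and 50 were the whole annotated 3′ UTR. The coding sequence ends at 1318425, so that the vtc4 peak also lay over the stop codon. The remaining 198 bases of the peak lay beyond the annotated end, between vtc4 and the convergent gene ade6, which encodes an enzyme of purine synthesis and ends 141 nt from the peak. The peak belongs to vtc4 only by this short overlap, since 21.4% of it lay in the gene. Of the 111 coding peaks of the Msa1-TAP list, 2.70% reached past the annotated end of their gene. The peaks of the list most like it were those over nic1 (28 tags against 4), duc1 (25 against 4) and pma1 (26.5 against 3.5), where pma1 encodes the proton pump of the plasma membrane. Their distances were 0.0794, 0.0841 and 0.193, so that the vtc4 peak had close matches in its list in tags, untagged tags and width, the measures used.

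**Figure D3:**
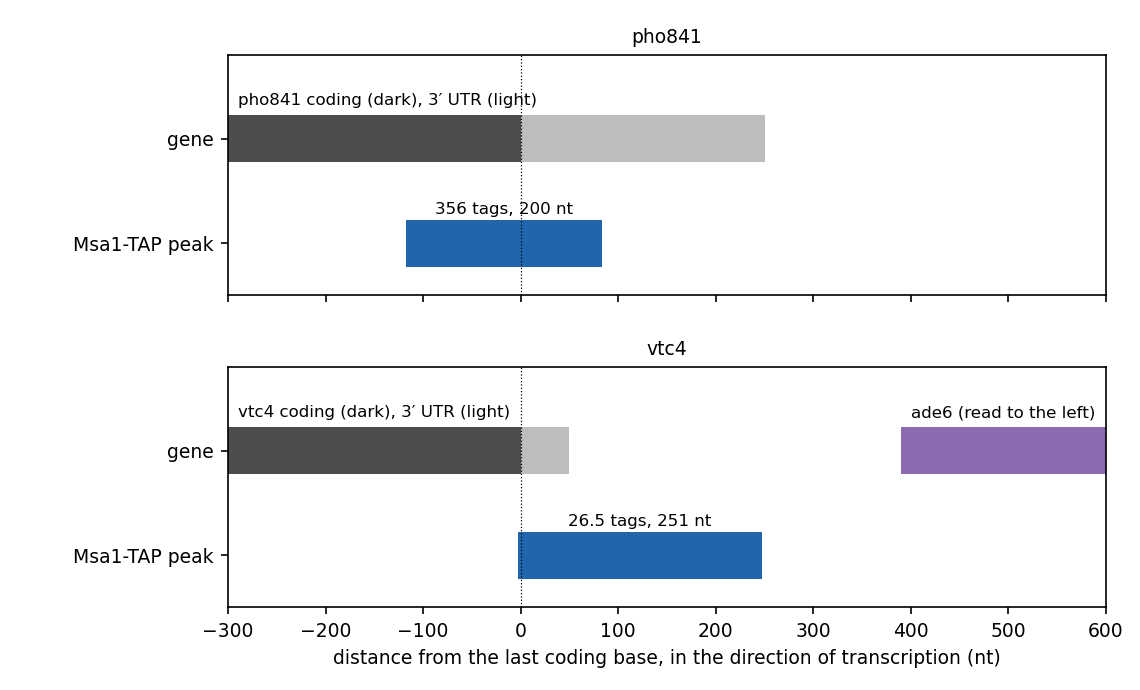
The maps give the 3′ ends of pho841 (top) and vtc4 (bottom) by distance from the last coding base in the direction of transcription, in nt, with coding sequence dark, 3′ UTR light, the Msa1-TAP peak blue and ade6 purple. Each peak lies over the stop codon of its gene. The pho841 peak lies within the gene, whereas 198 bases of the vtc4 peak lie past the annotated gene end.

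Base composition differed among the peaks. GC content was 35.5% in the Mei2-TAP peak of nc-tgp1, against a list median of 39.8%. In the Msa1-TAP list it was 43.3% in the shorter nc-tgp1 peak, 30.7% in the longer one, 35.3% at pho841 and 25.4% at vtc4, against a list median of 35.8%. The vtc4 peak was thus among the AT-richest, at rank 132 of 137 nuclear peaks by GC content. The clonal ratio, which rises when tags pile up at few positions, was 0.93 for the Mei2-TAP peak and 1.08 and 0.96 for the Msa1-TAP peaks of nc-tgp1. It was 1.31 at pho841 and 1.35 at vtc4, against a median of 1.10 and a highest value of 1.94 in the Msa1-TAP list. The part of base composition or of repeated tags in the ratios was not tested.

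**Figure D4:**
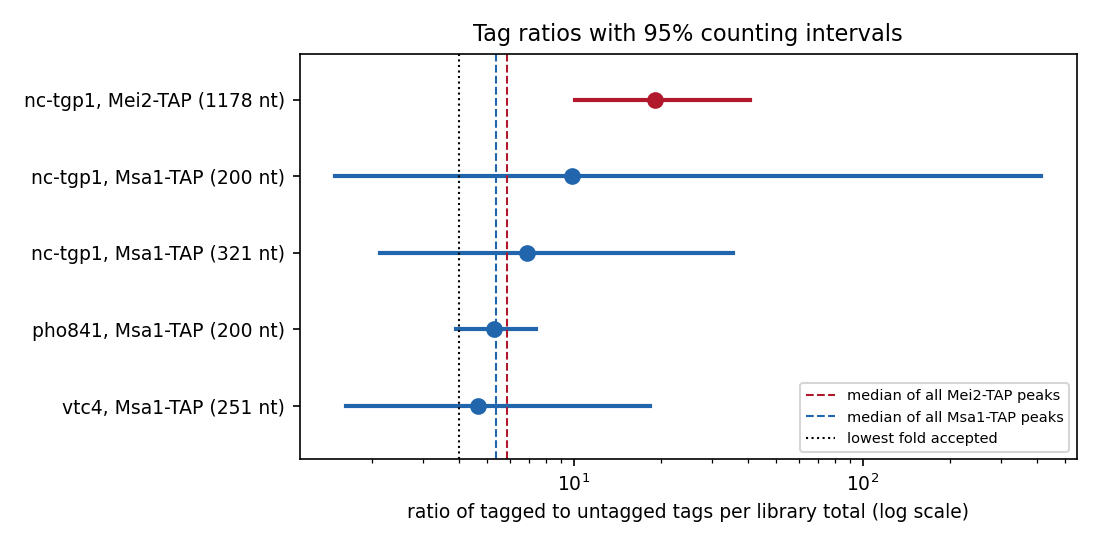
Points give the ratio of tagged to untagged tags per library total on a log scale for each of the 5 peaks, with bars for the exact 95% interval (counting error only), dashed lines for the median ratio of each list (5.86 and 5.37) and a dotted line at a fold of 4. Only the interval of the Mei2-TAP peak at nc-tgp1 (10.1 to 40.7) lies wholly above the median of its list.

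The rest of the phosphate pathway was looked up by name. Of 24 names of phosphate genes, 3 (pho88, xpr1 and vtc1) had no match in the annotation and the others matched 19 genes. Under Mei2-TAP peaks lay 1 of the 19, nc-tgp1 (5.26%, beside 1.56% of all genes), and under Msa1-TAP peaks 3 of the 19 (15.8%, beside 1.73%), which were the loci chosen for their peaks. Apart from these, 0 of 16 genes lay under a peak of either list, which is near the background shares, since these leave well under 1 gene in a list of that length. These included the acid phosphatase genes pho1 and pho4, the transporters pho84 and pho842, the lncRNAs prt (annotated as nc-pho1) and prt2, the activator gene pho7, the inositol pyrophosphate genes asp1, kcs1, aps1 and siw14, and vtc2, another subunit of the VTC complex. The nearest was tgp1 itself, 191 nt from the Mei2-TAP peak and 251 nt from an Msa1-TAP peak of nc-tgp1, and vtc2 lay 1412 nt from an Msa1-TAP peak. The lncRNAs of the pho1 and pho84 loci had no peak of either list nearer than 90477 nt. The lists hold peaks only, so that low recovery of these RNAs cannot be told from low abundance.

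Factors that end transcription of the phosphate lncRNAs were looked up in the same way. Of 8 genes, 1 lay under a Mei2-TAP peak (12.5%, beside 1.56% of all genes) and 0 under an Msa1-TAP peak, for a list that was written with earlier results of these data known. The gene was dhp1, the nuclear exonuclease that helps to end transcription, which held 9 tags against 1.5 (ratio 7.81, 1.39 to 123) at bases 437 to 637 of its 4860 nt transcript. An lncRNA, SPNCRNA.3502, also overlapped this peak, and without strand the RNAs cannot be told apart. The peak was a small one near the 5′ part of the gene, with fewer tags than the list median of 13.25. The genes ctf1, ssu72, dis2, ppn1, swd22, rhn1 and seb1 lay under no peak.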

How the data were processed

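Per the labels and the study's methods, read pairs of strand-specific libraries amplified for 12 cycles were aligned with STAR to ASM294v2, and peaks were called with HOMER by the authors in its mode for wide peaks, each list from 1 tagged library against the untagged one; versions are not given in the sources used here. The deposited signal is tags scaled to 10000000. The deposited estimated counts are tags in steps of 0.5, with 1 library per list rescaled to match its partner. As deposited, fold is their ratio (4 or higher), and the deposited p-value is HOMER's own, unadjusted. The clonal ratio was copied as the authors' value.

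Library totals were recovered from the scaled and unscaled tags. In peaks under 15 untagged tags, 115 of 115 Mei2-TAP values (untagged tags) and 130 of 130 Msa1-TAP values (tagged tags) lay within 0.2 of a 0.5-tag step. The Msa1-TAP total was chosen so that its tags fell on such steps, so that its count is no independent check. Ratios were recomputed from these tags with exact Clopper-Pearson 95% intervals. Deposited widths are the end minus the start, and overlaps were counted with both end bases. Genes and sequences came from RefSeq ASM294v3; of 165 genes with ASM294v2 coordinates, 165 were on the same chromosome and 162 shared an end. Each peak took the gene it overlapped most. Python 3.11.15, scipy 1.17.1 and blastn 2.17.0 were used, and the recovery of tags and intervals was tested on simulated data. With 1 tagged library a list, no test between samples was run. Named genes were the members, genes their peaks overlapped, genes of the 2 lists under a peak, and the 3 nearest peaks by tags and width or by the 2 ratios. One item of these lists is not reported here. The members and lists were chosen with earlier results of these data known.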

Additional observations from a re-analysis of the deposited data

How the results depend on the processing

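Ratios of the 5 peaks stayed within their main 95% intervals with totals taken without abundant or all peaks and with 0.5 tag added, and 15 of 15 such values were at or above 4 (4.21 to 20.2). Counting reads in place of tags changes only the interval. With a fold of at least 8 and a p-value up to 1e-10, 0 of the 4 Msa1-TAP peaks remained, and with a lower bound above 2, 2 of 4 remained, the longer peak of nc-tgp1 and pho841; the Mei2-TAP peak passed each. With 50% of a peak inside its locus, 3 Msa1-TAP peaks were left, without vtc4. Adding 250 nt to gene ends brought tgp1 under the Mei2-TAP peak, for 2 genes of the phosphate list. The Msa1-TAP peaks of nc-tgp1 covered 94.1% of the Mei2-TAP peak when the stretch between them was included. All tags of the vtc4 peak over the bases inside the gene would give 491 tags per kb in place of 106, through the shorter length alone. On both strands, hexamers numbered 2 in the longer nc-tgp1 peak and 1 in that of vtc4. No paired analysis was possible because each list came from 1 tagged library, so that no replicate could be left out either.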
